A study of Mus musculus with 4 samples.

Results

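Defb29 and Defb1 encode beta-defensins, and their messenger RNA was followed here through the cell groups of mouse renal cortex. The members were chosen by name, 2 of the 22078 genes with at least 1 unique molecular identifier (UMI) in the count files. They were proposed with earlier values from the same libraries in view, namely their levels by cell group and the Defb29 difference between genotypes in proximal tubule cells. Those values are therefore given as a description with no test. The 2 genes held 98.3% of all beta-defensin UMIs in the retained cells.

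Beta-defensins are small cationic peptides that epithelia secrete onto their surfaces, where they can damage the membranes of bacteria and attract immune cells. Each is made as a precursor with a signal peptide, and conserved cysteines form the disulfide bonds that hold the mature peptide together. In the kidney, Defb1 is known as a product of the distal nephron that reaches the urine, while many other members of the family are made mainly in the male reproductive tract.

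The coding sequences are shown because the cysteine codons mark the family and show which of the detected members resemble each other. They were taken from the GENCODE M21 transcripts (GRCm38), run 5′ to 3′ from start to stop codon, and carry the in-frame cysteine codons (TGT or TGC) in capitals.
Defb29: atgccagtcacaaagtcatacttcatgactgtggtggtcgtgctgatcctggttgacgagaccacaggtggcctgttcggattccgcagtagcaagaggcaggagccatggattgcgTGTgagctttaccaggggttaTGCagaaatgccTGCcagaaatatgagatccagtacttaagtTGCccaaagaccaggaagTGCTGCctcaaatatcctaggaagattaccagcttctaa
Defb1: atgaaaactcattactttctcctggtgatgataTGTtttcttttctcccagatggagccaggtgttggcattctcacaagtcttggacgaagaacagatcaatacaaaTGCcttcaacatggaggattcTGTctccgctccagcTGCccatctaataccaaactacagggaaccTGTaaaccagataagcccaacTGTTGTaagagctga
Defb19: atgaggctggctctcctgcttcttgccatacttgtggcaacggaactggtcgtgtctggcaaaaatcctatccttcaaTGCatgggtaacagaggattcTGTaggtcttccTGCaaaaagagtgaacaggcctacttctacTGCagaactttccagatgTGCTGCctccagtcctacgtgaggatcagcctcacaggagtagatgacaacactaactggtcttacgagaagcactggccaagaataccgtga
Defb29 has 78 codons before the stop, with cysteine codons at positions 40, 47, 51, 61, 67 and 68 counted from the start codon. Defb1 has 69 codons, with cysteine codons at 12, 37, 44, 49, 59, 66 and 67. The last 6 cysteine codons of Defb29 are 7, 4, 10, 6 and 1 codons apart, and those of Defb19 have the same steps. In Defb1 the steps are 7, 5, 10, 7 and 1, as they are in Defb2 and Defb11, the other family members detected. Aligned end to end, the Defb29 and Defb1 coding sequences share 47.7% of positions, Defb29 and Defb19 share 50%, and Defb1 and Defb2 share 62.1%. Defb19 also shares 50.2% with Defb2 and with Defb11, so only the cysteine steps set Defb29 and Defb19 apart as a pair.

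Defb29 (ENSMUSG00000044249) lies on chromosome 2 from 152538714 to 152540098 on the minus strand, and Defb1 (ENSMUSG00000044748) on chromosome 8 from 21776599 to 21795185 on the plus strand (GRCm38). Each has 1 annotated transcript of 2 exons and overlaps no other annotated gene. The nearest protein-coding genes are Defb28 and Gm17416 beside Defb29 and the alpha-defensin gene Defa24 and Defb50 beside Defb1. All 4 neighbours had 0 UMIs in the retained cells. The count files give genes only, so where in each transcript the reads fell is not known.

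The study compared diabetic Akita mice with wild-type mice by Drop-seq, a droplet method that tags each captured mRNA with a cell barcode and a UMI. Akita mice (C57BL/6-Ins2Akita/J) have a dominant mutation in Ins2, an insulin gene active in pancreatic beta cells, and become diabetic. Cortex from 1 kidney per library was dissociated, giving 2 Akita libraries from mice aged 116 and 119 days and 2 wild-type libraries from mice aged 45 and 51 days. Genotype and age therefore cannot be told apart, and the housing time in the growth protocol is longer than any of these ages. Replicates are the numbered libraries, and the labels name no individual animals, so errors and p-values measure only the spread between these libraries.

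The files held between 1016719 and 1303453 UMIs each. Barcodes with at least 200 genes and at most 50% mitochondrial UMIs were retained as cells, 311 and 600 in Akita and 564 and 441 in wild type. Levels are in CPM, the usual scaling of a gene's UMIs by all UMIs summed over the cells named, and intervals are exact 95% Poisson or binomial intervals that cover counting error only. As many as 884 barcodes occurred both in the file of Akita replicate 2 and in that of Wild-type replicate 1, against 3 or 4 for every other pair of files. Shared barcodes made up 73% and 80.5% of the retained cells of these libraries, and all 424 retained in both files fell into the same cell group in both. The fits to the files as deposited treat the libraries as independent, which these are not where they hold the same cells. Levels over all libraries count a barcode retained in both files in each of them. Their intervals are too narrow where such a barcode is 1 cell. Shared barcodes fell into a set with relatively more UMIs in one file and a set with relatively more in the other, so the main comparisons of the genotypes are also given with every shared barcode kept only in the file that held relatively more of it (an assumption), only in the other file, or left out.

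Cell groups were formed without any beta-defensin gene. Of 1916 cells, 1446 were proximal tubule-like, 177 loop of Henle-like, 103 distal convoluted tubule-like, 63 connecting tubule-like, 111 intercalated-like and 16 macrophage or dendritic-like. The 21 proximal markers took 7.04% of UMIs in proximal tubule-like cells and between 0.824% and 0.883% in the other tubule groups. The loop label was less secure. The loop of Henle-like cells were led by Umod and Egf, but 73.4% of them had a UMI of Slc12a3, the sodium chloride cotransporter of the distal convoluted tubule, and 12.4% a UMI of Slc12a1, the cotransporter that defines the thick ascending limb. Distal convoluted tubule-like cells were split from the same cluster and had Umod at 2318 CPM, against 3772 CPM in the loop of Henle-like cells. The 2 groups are therefore also given together below.

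Defb29 was a transcript of the proximal tubule-like cells. Of its 278 UMIs in retained cells, 271 were there, 6 were in loop of Henle-like cells, 1 was in a distal convoluted tubule-like cell, and none was in a connecting tubule-like or intercalated-like cell. The level over all libraries was 123 CPM (interval 109 to 139) in proximal tubule-like cells and 11.1 CPM in all other cells. That remainder was 9.0% of the proximal level, between the corresponding shares of the proximal genes Gatm (6.81%) and Kap (14.6%). In loop of Henle-like cells alone it was 40.6 CPM (interval 14.9 to 88.4), with 0, 43.8, 80.0 and 25.5 CPM in Akita replicates 1 and 2 and Wild-type replicates 1 and 2, from 3 UMIs or fewer each. In the same cells Gatm had 108 CPM, against 1141 CPM in proximal tubule-like cells, and Kap 5730 against 41414 CPM. In connecting tubule-like and intercalated-like cells the intervals of the count of 0 reached 60.7 and 30.5 CPM. A UMI of Defb29 was found in 184 of 1446 proximal tubule-like cells, 12.7% (interval 11.05 to 14.6). The proximal tubule-like cells had a median of 793 UMIs and the loop of Henle-like cells a median of 645, with a Defb29 UMI in 3.39% of the latter. With each cell thinned to 400 UMIs, and 171 and 25 shallower cells left out, the shares were 4.31% in proximal and 0.658% in loop of Henle-like cells.

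**Figure D1:**
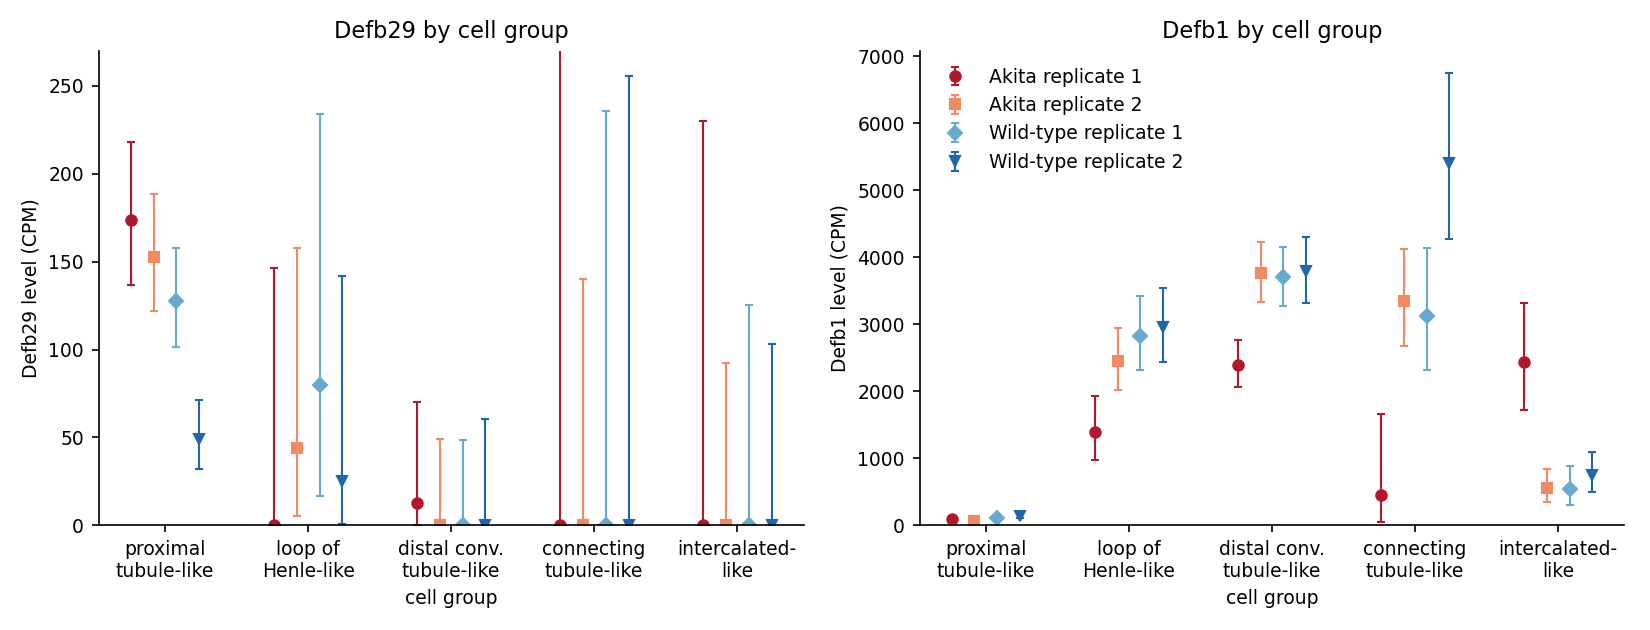
Level of Defb29 (left) and Defb1 (right) in CPM by cell group, 1 point per library with its exact 95% Poisson interval; the interval of Akita replicate 1 in connecting tubule-like cells (6 cells) runs past the left axis to 847 CPM. Defb29 is seen in the proximal tubule-like cells, where Wild-type replicate 2 is lowest at 48.9 CPM, and Defb1 is at 1390.05 CPM or more in every library's loop and distal convoluted tubule-like cells.

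Among the libraries, Defb29 in proximal tubule-like cells had 75 and 86 UMIs in Akita replicates 1 and 2, and 83 and 27 in Wild-type replicates 1 and 2. These gave 174 CPM (interval 137 to 218) and 152 CPM (122 to 188) in Akita, and 127 CPM (101.4 to 158) and 48.9 CPM (32.3 to 71.2) in wild type. Both Akita libraries lay above both wild-type libraries, but Wild-type replicate 1 was close to Akita, its interval overlapping both, and Wild-type replicate 2 was low alone. The Akita mean was 163 ± 15.1 CPM and the wild-type mean 88.2 ± 55.5 CPM (SD, n = 2). The log2 fold change of Akita over wild type was 0.85 ± 0.34 (SE). At 11.6% of the 6097 genes tested in these cells both Akita libraries were likewise above both wild-type libraries, and edgeR called 0 of the 6097 (0%) at an adjusted p under 0.05, with 58 at an unadjusted p under 0.05. DESeq2 and limma-voom also called 0. Leaving out Wild-type replicate 2 gave a log2 fold change of 0.30, and leaving out Wild-type replicate 1 gave 1.77.

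The size of this difference depended on how the shared barcodes were assigned. Proximal tubule-like cells whose barcode held relatively more UMIs in Akita replicate 2 had Defb29 at 222 CPM (interval 172 to 281) in that file and at 253 CPM (192 to 327) in the file of Wild-type replicate 1. Those with relatively more in Wild-type replicate 1 had 58.7 CPM (29.3 to 105) and 61.7 CPM (38.7 to 93.4) in the same files. The level thus followed the set of barcodes and not the file in which they were counted. Proximal tubule-like cells outside the shared set had 91.7 CPM (6 UMIs) in Akita replicate 2 and 45.4 CPM (3 UMIs) in Wild-type replicate 1.

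**Figure D2:**
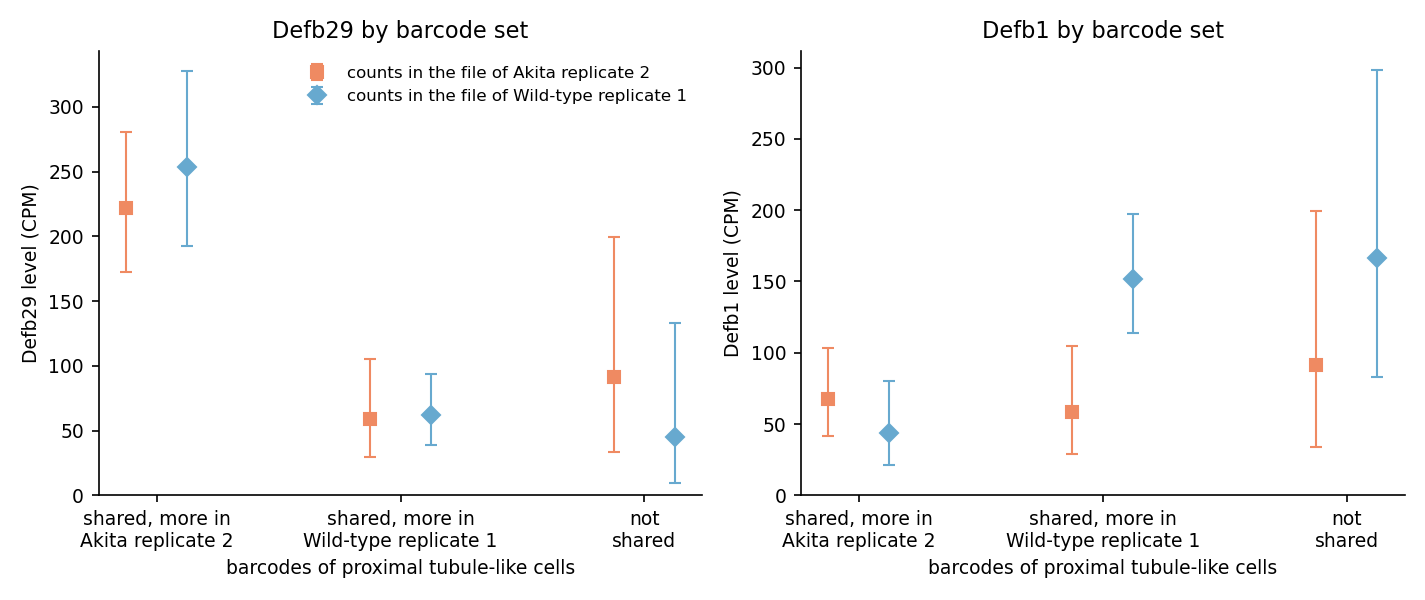
Levels of Defb29 (left) and Defb1 (right) in proximal tubule-like cells of the libraries that share barcodes, in CPM with exact 95% Poisson intervals, for shared barcodes with relatively more UMIs in either file and for barcodes in 1 file. Defb29 is above 200 CPM in both files for the first set and near 60 CPM in both for the second.

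With each shared barcode kept in the file that held relatively more of it, Defb29 had 174 and 199 CPM in the Akita libraries and 59.1 and 48.9 CPM in the wild-type libraries. The groups were then apart, at 186 ± 17.9 against 54.0 ± 7.22 CPM (SD, n = 2), and the log2 fold change was 1.83 ± 0.32 (SE). In that setting 12.9% of 5276 genes had both Akita libraries higher. Kept in the other file instead, the shared cells gave 174 and 67.2 CPM in Akita and 207 and 48.9 CPM in wild type, so the groups overlapped, with the higher mean in wild type (121 ± 75.4 against 128 ± 112 CPM; SD, n = 2) and a fitted log2 fold change of 0.05 ± 0.52 (SE). Without any shared barcode the values were 174 and 91.7 CPM against 45.4 and 48.9 CPM, apart, as at 12.8% of 3714 genes. Akita replicate 1 and Wild-type replicate 2, which these settings leave as they are, stood at 174 and 48.9 CPM throughout.

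Over all retained cells, the levels were 136 and 116 CPM in Akita and 106 and 39.8 CPM in wild type. The groups did not overlap, as at 12.6% of 7169 genes, and the log2 fold change was 0.75 ± 0.34 (SE). Proximal tubule-like cells were 78.1% and 73.0% of cells in Akita and 78.7% and 72.8% in wild type. Where each shared barcode was kept in 1 file, the means were 139 ± 3.90 and 47.0 ± 10.2 CPM (SD, n = 2; log2 fold change 1.599), apart as at 13.5% of genes. Kept in the other file, the levels were 136 and 58.6 CPM against 157 and 39.8 CPM, which overlapped (log2 fold change 0.11 ± 0.49, SE). Without shared barcodes they were 136 and 68.5 CPM against 43.7 and 39.8 CPM (log2 fold change 1.47 ± 0.53, SE).

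**Figure D3:**
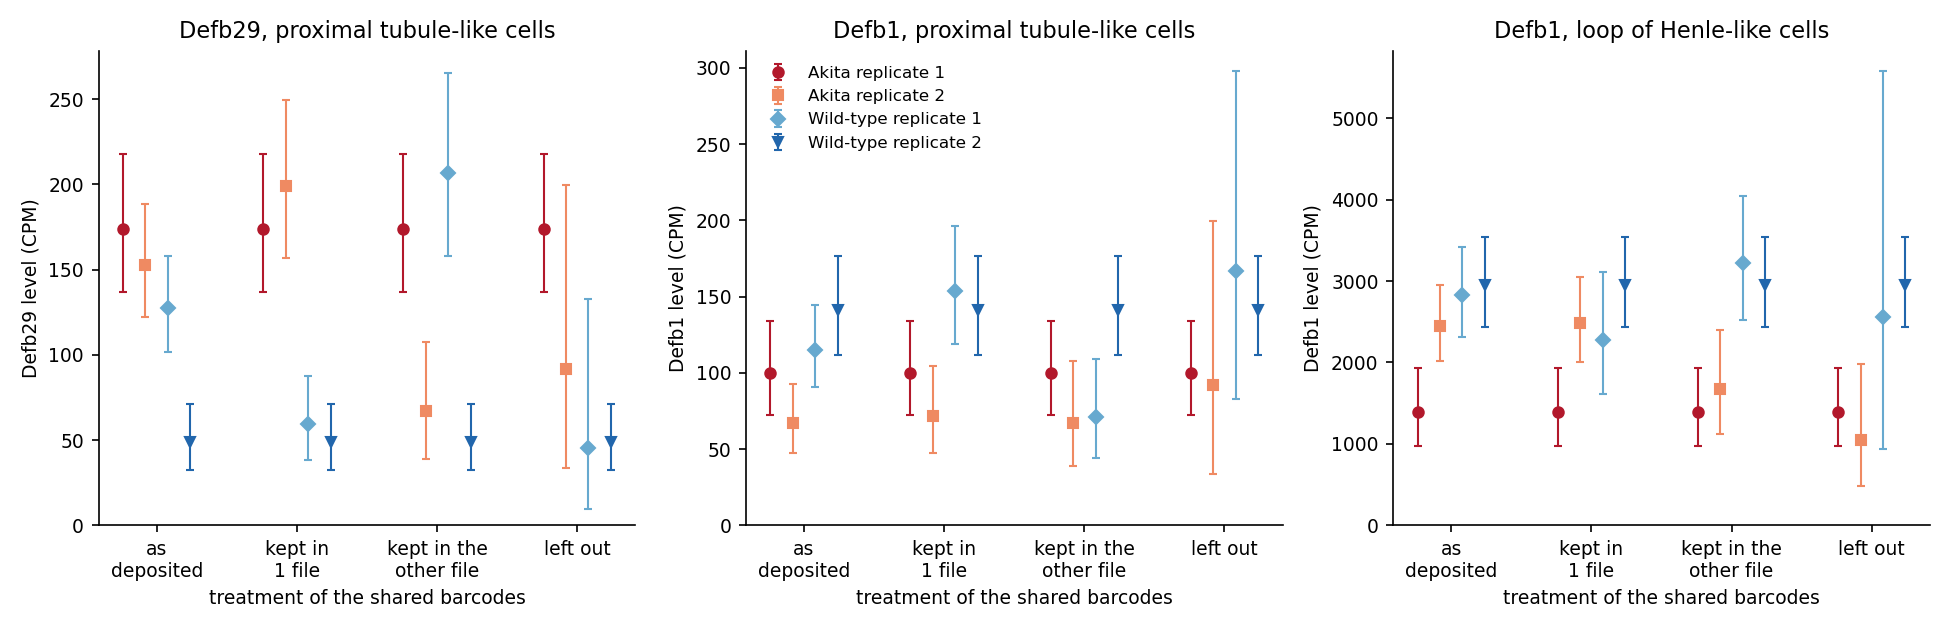
Levels in CPM by library, with exact 95% Poisson intervals, for Defb29 and Defb1 in proximal tubule-like cells and Defb1 in loop of Henle-like cells, with the files as deposited and under each treatment of the shared barcodes. Only Akita replicate 2 and Wild-type replicate 1 move between settings. Their Defb29 levels exchange order, 199 and 59.1 CPM in the second setting and 67.2 and 207 CPM in the third.

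The proximal tubule-like cells formed 7 clusters, and Defb29 was unevenly spread among them. The level over all libraries was highest in cluster 4, led by the metalloprotease gene Mep1b and the aspartic protease gene Napsa, at 315 CPM (interval 227 to 426, 173 cells). It was 148 CPM in cluster 5, which was led by nuclear RNAs such as Malat1 and Neat1, and 132 CPM in cluster 0, which carried S3 and S2 markers. Cluster 3, led by Dnase1 and Aldh1a7, had 100.5 CPM and cluster 1, which carried S1 markers, had 75.5 CPM. Clusters 8 and 6 had 35.5 and 25.5 CPM from 3 and 2 UMIs. The intervals of clusters 5, 0 and 3 overlapped, and those of cluster 4 and cluster 5 did not. Within cluster 4 Defb29 had 9, 18 and 15 UMIs in Akita replicate 1, Akita replicate 2 and Wild-type replicate 1 (379, 354 and 439 CPM), and 0 UMIs in the 44 cells of Wild-type replicate 2, with an interval up to 151 CPM. In this cluster 1 cell held 8 of the 18 UMIs of Akita replicate 2, and 1 cell held 6 of the 15 of Wild-type replicate 1. The barcode with 8 UMIs was shared and had 6 in the file of Wild-type replicate 1. The gap between the intervals of clusters 4 and 5 was not tested without such cells. Wild-type replicate 2 was lowest, alone or level with Wild-type replicate 1 at 0, in all 7 clusters. It had only 1 UMI in cluster 1 and 0 in clusters 3, 4, 6 and 8. Its intervals in clusters 1, 3, 6 and 8 reached 166, 90.0, 376 and 127 CPM, so the order in these clusters is uncertain. The mean over clusters, each given the same weight, was 158 and 143 CPM in Akita and 146 and 20.4 CPM in wild type, the last resting largely on these counts.

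**Figure D4:**
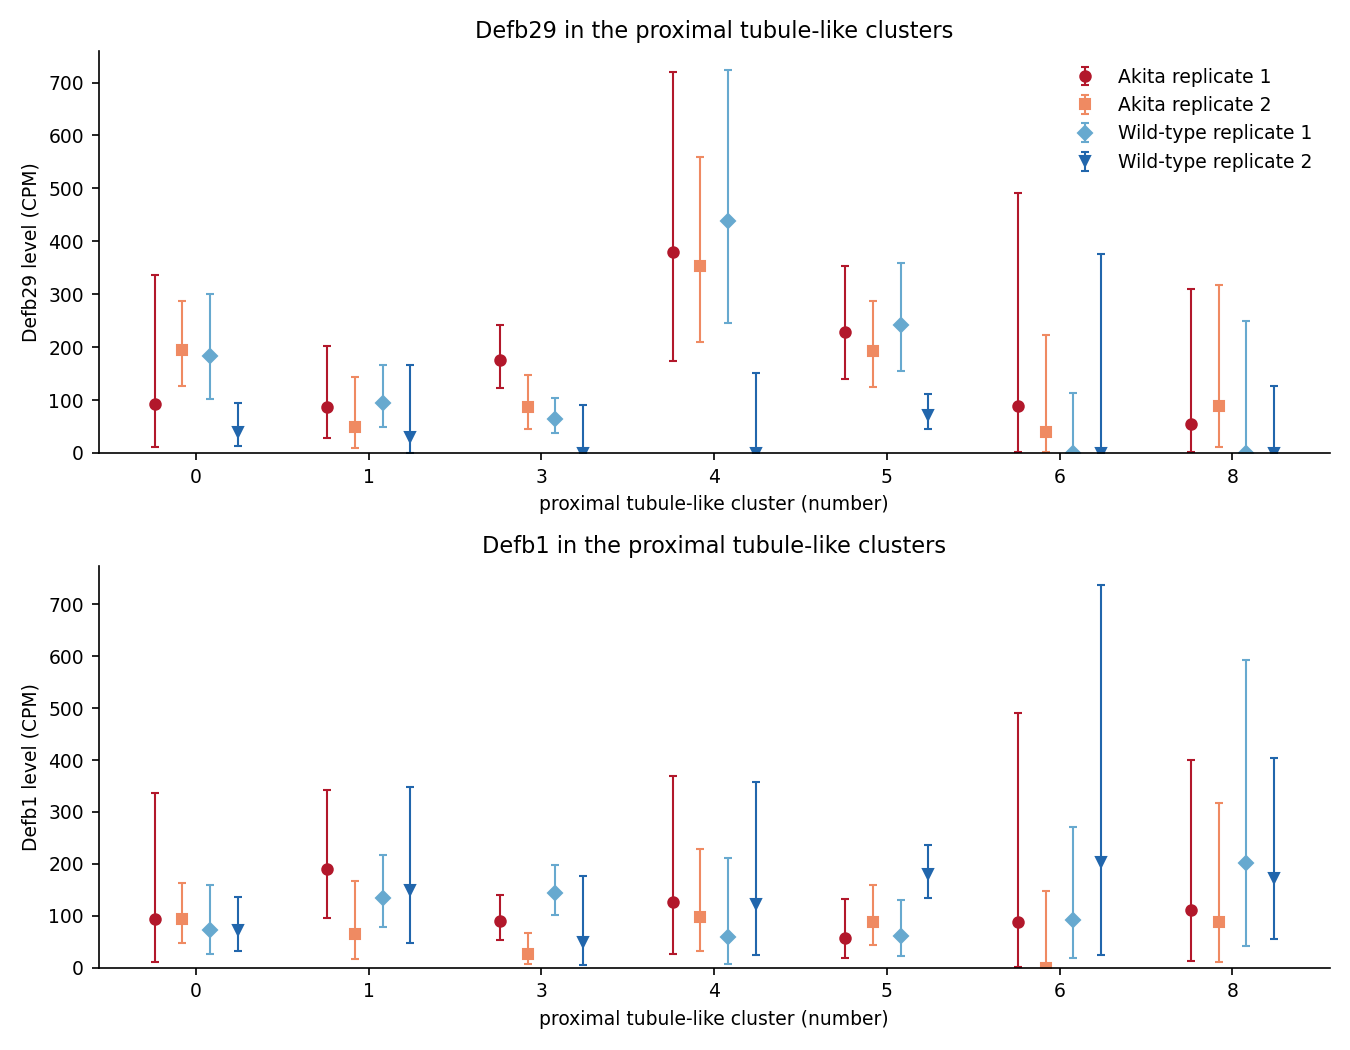
Levels of Defb29 (top) and Defb1 (bottom) in CPM in each of the 7 proximal tubule-like clusters, 1 point per library with its exact 95% Poisson interval. Defb29 is highest in cluster 4 in 3 libraries and at 0 there in Wild-type replicate 2; Defb1 over all libraries lies between 76.4 and 142 CPM in the 7 clusters.

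Single cells carried few Defb29 molecules. In proximal tubule-like cells the most in any cell was 8 UMIs, and between 4 and 15 cells per library had at least 2. In Wild-type replicate 2, 7 of the 27 UMIs came from 1 cell of 35310 UMIs, and the level without it was 38.7 CPM. After thinning to 400 UMIs, 7.25% and 4.59% of proximal tubule-like cells in Akita had a Defb29 UMI, and 5.12% and 0.694% in wild type. The thinned shares kept Wild-type replicate 2 apart from the other libraries. Wild-type replicate 1 lay between the Akita libraries in these shares, as it did before thinning (13.5% against 20.2% and 13.2%). The thinned levels were 181 and 149 CPM in Akita against 128 and 17.4 CPM in wild type. They come from a single random draw, with a Defb29 UMI in 15 and 17 cells in Akita and 21 and 2 in wild type. Counts this low do not set Akita replicate 2 above Wild-type replicate 1.

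Defb1 was high in the distal nephron groups and low in the proximal tubule. Over all libraries it had 3572 CPM (interval 3113 to 4080) in connecting tubule-like cells, 3380 CPM (3172 to 3598) in distal convoluted tubule-like cells, 2499 CPM (2251 to 2768) in loop of Henle-like cells, 859 CPM (702 to 1041) in intercalated-like cells and 106 CPM (93.2 to 121) in proximal tubule-like cells. The connecting and distal convoluted tubule-like levels did not differ beyond their intervals. In each library the loop of Henle-like level exceeded the proximal level, by 13.9, 36.4, 24.6 and 20.9-fold in Akita replicates 1 and 2 and Wild-type replicates 1 and 2. The proximal level was 4.0% of that in all other cells, between the corresponding shares of the distal genes Umod (2.57%) and Slc12a3 (5.65%). Whether the Defb1 UMIs of proximal tubule-like cells arose in those cells was not tested. After thinning to 400 UMIs, a Defb1 UMI was found in 77.2% of connecting tubule-like, 64.3% of distal convoluted tubule-like, 51.3% of loop of Henle-like, 21.8% of intercalated-like and 4.63% of proximal tubule-like cells. Before thinning the shares were 87.3%, 88.3%, 63.3%, 31.5% and 12.1%, at median depths of 765, 1603, 645, 782 and 793 UMIs.

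Within the loop of Henle-like cells, Defb1 was lower where Slc12a1 was read and higher where Slc12a3 or Umod was read. The 22 cells with a UMI of Slc12a1 had Defb1 at 334 CPM (7 UMIs, interval 134 to 688), and the 155 without one had 2857 CPM (2570 to 3167). Their median depths were 758 and 644 UMIs. The 130 cells with a UMI of Slc12a3 had 2819 CPM (2522 to 3142) and the 47 without one had 1326 CPM (956 to 1792). For Umod, the loop marker that led the group, the 125 cells with a UMI had 2694.5 CPM (2405 to 3009). The 52 without one had 1756 CPM (1319 to 2292). Umod and Slc12a1, the only loop markers split in this way, thus went in opposite directions. Median depths with and without a UMI were 700.5 and 551 UMIs for Slc12a3, and 737 and 469 UMIs for Umod. The part of depth in these differences was not tested. In each library the cells with Slc12a1 had the lower level, at 362, 926, 238 and 0 CPM against 1679, 2609, 3156 and 3583 CPM. The 0 rests on 7 cells, and its interval reaches 534 CPM. Of the 369 Defb1 UMIs in the group, 362 were in cells without a UMI of Slc12a1, which were 155 of the 177 cells. At these depths a missing UMI does not show that a cell lacks the transcript.

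In loop of Henle-like cells Defb1 had 35 and 112 UMIs in Akita, and 106 and 116 UMIs in wild type. The levels were 1390.05 CPM (interval 968 to 1933) and 2450.2 CPM (2018 to 2948) in Akita, and 2828 CPM (2315 to 3420) and 2953 CPM (2440 to 3542) in wild type. Akita replicate 1 stood low, on 27 cells, and the intervals of the other 3 libraries overlapped. The means were 1920 ± 749.7 and 2891 ± 88.4 CPM (SD, n = 2). The log2 fold change was −0.47 ± 0.25 (SE; edgeR adjusted p 0.995), which did not pass. An approximate 95% interval before adjustment, from the SE and a normal quantile, ran from −0.96 to 0.02. It is narrower than the edgeR test implies. Both Akita libraries were lower than both wild-type libraries, as at 17% of the 546 genes tested in these cells (11.2% had both higher), of which 0 (0%) were called by edgeR, DESeq2 or limma-voom and 8 had an unadjusted p under 0.05 in edgeR.

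The order of the libraries changed with the shared barcodes. With each shared barcode kept where it had relatively more UMIs, the levels were 1390.05 and 2488 CPM in Akita and 2274 and 2953 CPM in wild type, which overlapped. Kept in the other file they were 1390.05 and 1671 against 3219 and 2953 CPM (log2 fold change −0.92 ± 0.21, SE; edgeR adjusted p 0.931), apart as at 21.3% of genes. Left out, they were 1390.05 and 1045 against 2561 and 2953 CPM (log2 fold change −0.93 ± 0.38, SE; edgeR adjusted p 0.991), apart as at 24.3% of genes, with 4 loop of Henle-like cells left in Wild-type replicate 1. The share of loop of Henle-like cells with a UMI of Slc12a1 was 11.1% and 11.5% in Akita and 11.6% and 15.2% in wild type. The level of Slc12a1 was 2343, 569, 694 and 1757 CPM in the same order, highest in Akita replicate 1, and its part in the low Defb1 level of that library was not tested.

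In distal convoluted tubule-like cells the levels were 2398 and 3765 CPM in Akita and 3700 and 3790 CPM in wild type, so the groups overlapped and Akita replicate 1 was again lowest. Single deep cells held a large part of the UMIs. In Akita replicate 1, 89 of the 191 Defb1 UMIs came from 1 cell of 21784 UMIs, and in Wild-type replicate 2, 97 of 231 came from 1 cell of 17706 UMIs. In the libraries with shared barcodes the same barcode led both files, with 76 UMIs in Akita replicate 2 and 67 in Wild-type replicate 1. Without its leading cell each library had 1762, 3423, 3322 and 3098 CPM, in the same order of libraries, so Akita replicate 1 was still lowest and the groups still overlapped. With loop of Henle-like and distal convoluted tubule-like cells together the levels were 2156 and 3268 CPM in Akita and 3412 and 3462 CPM in wild type (log2 fold change −0.30 ± 0.22, SE; edgeR adjusted p 0.991). With each shared barcode kept where it had relatively more UMIs, the distal convoluted tubule-like levels were 3641 CPM in Akita replicate 2 and 3365 CPM in Wild-type replicate 1, and kept in the other file 3834 and 4039 CPM. Without shared barcodes the distal convoluted tubule-like means were 2369 ± 40.9 and 4810 ± 1443 CPM (SD, n = 2) in Akita and wild type, with 1 cell left in Wild-type replicate 1 and 4 in Akita replicate 2.

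In connecting tubule-like cells Defb1 had 3345 CPM in Akita replicate 2 and 3129 and 5407 CPM in Wild-type replicates 1 and 2, while Akita replicate 1 had 2 UMIs in 6 cells. In intercalated-like cells it had 2431 CPM in the 8 cells of Akita replicate 1, where 19 of 39 UMIs came from 1 cell, and 552 CPM in Akita replicate 2 and 544 and 756 CPM in Wild-type replicates 1 and 2. Neither group of cells separated the genotypes in the files as deposited. Where each shared barcode was kept in 1 file, the connecting tubule-like mean was 1812 ± 1912 CPM for Akita against 5395 ± 16.8 CPM for wild type (SD, n = 2), on 6 cells of Akita replicate 1 and 2 of Wild-type replicate 1. Kept in the other file, Akita replicate 2 and Wild-type replicate 1 had 4015 and 2893 CPM in connecting tubule-like cells, and without shared barcodes Wild-type replicate 1 had no such cell. In intercalated-like cells they had 557 and 0 CPM, with 1 cell in Wild-type replicate 1, and kept in the other file 0 CPM, with 6 cells in Akita replicate 2, and 554 CPM.

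In proximal tubule-like cells Defb1 had 43 and 38 UMIs in Akita and 75 and 78 in wild type, 99.6 and 67.3 CPM against 115 and 141 CPM. Both Akita libraries were lower, as at 11.1% of genes, the reverse of the order of Defb29. The log2 fold change was −0.64 ± 0.28 (SE) and did not pass (edgeR adjusted p 1.00). Where each shared barcode was kept in 1 file, the levels were 99.6 and 71.7 against 154 and 141 CPM (−0.75 ± 0.30, SE; edgeR adjusted p 1.00), apart as at 16.4% of genes. Left out, they were 99.6 and 91.7 against 167 and 141 CPM, as at 13.1% of genes, and kept in the other file the groups overlapped. Unlike Defb29, Defb1 did not have like levels in both files for each set of shared barcodes. Those with relatively more UMIs in Akita replicate 2 had 67.5 CPM in its file and 43.7 CPM in the other, while those with relatively more in Wild-type replicate 1 had 58.7 CPM (interval 29.3 to 105) and 151 CPM (114 to 198). Summed over the 9 distal convoluted tubule markers, the same cells had 987 and 463 CPM in Akita and 568 and 914 CPM in wild type, with none of the markers at 0 in any library. The 14 loop markers summed to 375 and 301 against 302 and 515 CPM, with between 2 and 4 at 0. Neither sum separated the groups.

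Over all retained cells Defb1 had 556 and 719 CPM in Akita and 651 and 753 CPM in wild type, with overlapping groups. The log2 fold change was −0.13 ± 0.22 (SE; edgeR adjusted p 1.00). An approximate 95% interval before adjustment, from the SE and a normal quantile, ran from −0.56 to 0.30. Of 7169 genes in this comparison 0 (0%) were called, with 68 at an unadjusted p under 0.05, and 11% had both Akita libraries lower. DESeq2 and limma-voom called 0. Where each shared barcode was kept in 1 file, the Defb1 means were 666 ± 156 and 624 ± 182 CPM (SD, n = 2), and the log2 fold change turned to 0.13 ± 0.28 (SE; edgeR adjusted p 0.999). Kept in the other file they were 555 ± 1.46 and 762 ± 13.3 CPM, with a log2 fold change of −0.49 ± 0.22 (SE; edgeR adjusted p 0.998), which did not pass.

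Of the 1446 proximal tubule-like cells, 184 had a Defb29 UMI, 175 had a Defb1 UMI and 34 had both. In loop of Henle-like cells 112 of 177 had Defb1 and 3 had both.

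The rest of the beta-defensin family was nearly silent. The annotation held 43 beta-defensin symbols, of which 9 had a UMI in the files (Defb13, Defb30 and Defb42 only in strings that are not barcodes) and 5 in a retained cell. Defb19, the chromosome 2 neighbour of Defb29 at 35988 bases with the same cysteine steps, had 12 UMIs, all in proximal tubule-like cells, with 1, 3, 4 and 4 in Akita replicates 1 and 2 and Wild-type replicates 1 and 2. Defb2, 44741 bases from Defb1 on chromosome 8, had 12 UMIs, of which 5 were in connecting tubule-like, 3 in distal convoluted tubule-like, 3 in proximal tubule-like and 1 in loop of Henle-like cells. Defb11, also on chromosome 8, had 13 UMIs, of which 6 were in connecting tubule-like and 4 in distal convoluted tubule-like cells. These counts are too few to compare genotypes.

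Other genes of epithelial defence were taken from lists chosen with earlier results of these data known. Of 30 antimicrobial peptides and proteins of the urinary tract, 13 had a UMI in a retained cell, and the most abundant were distal. Umod, which encodes the urinary glycoprotein uromodulin and was also a marker used for naming, had 3772 CPM in loop of Henle-like and 52.7 CPM in proximal tubule-like cells. Wfdc15b and Wfdc2, which encode whey acidic protein-type protease inhibitors, had 3075 and 461 CPM in loop of Henle-like and 65.0 and 27.7 CPM in proximal tubule-like cells. Wfdc2 was highest in connecting tubule-like cells, at 1580.3 CPM, as was Spp1 (osteopontin), at 5564 CPM. Pigr, the receptor that carries immunoglobulin A across epithelia, had 251 CPM in loop of Henle-like and 85.9 CPM in proximal tubule-like cells.

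None of these list members passed the test between genotypes. Over all retained cells 5 of the antimicrobial genes were tested, edgeR called 0, 2 (Umod and Wfdc15b) had both Akita libraries higher and none had both lower (12.6% and 11% of all genes), and their median log2 fold change was 0.23 against 0.00133 for all genes. In proximal tubule-like cells the 5 tested had a median of −0.31, with overlapping groups at each. In loop of Henle-like cells Pigr had 437 and 328 CPM in Akita and 160 and 127 CPM in wild type. The log2 fold change was 1.45 ± 0.58 (SE; edgeR adjusted p 0.995), with both Akita libraries higher, as at 11.2% of 546 genes. In these sums 3 UMIs amount to 119 and 65.6 CPM in Akita and 80.0 and 76.4 CPM in wild type. The Pigr levels therefore rest on few UMIs. Pigr was called in these cells when cell groups were formed from marker UMIs without clustering. Umod there had 3694 and 3260 CPM in Akita and 4002 and 4201 CPM in wild type (−0.13 ± 0.23, SE; edgeR adjusted p 0.995).

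Of 24 listed genes for sensing and signalling upstream of defensins, 20 had a UMI. All 20 were below 150 CPM over the retained cells, where Defb29 had 98.2 CPM and Defb1 676 CPM. The most abundant were Irak1 (147 CPM), a kinase that acts downstream of interleukin-1 and Toll-like receptors, the vitamin D receptor Vdr (113 CPM), Ppara (38.2 CPM), Jun (34.6 CPM) and Stat3 (26.1 CPM). Of 8 tested over all retained cells and 7 in proximal tubule-like cells, edgeR called 0, as it did of all genes (0%). Of 9 receptors and processing enzymes of defensins, 8 had a UMI. Klk1, a kallikrein that was also a naming marker, had 59408 CPM in connecting tubule-like cells. Txn1 and Txnrd1, the thioredoxin and its reductase that can reduce the disulfide bonds of human beta-defensin 1, had 678 and 150.1 CPM in proximal tubule-like and 237 and 142 CPM in loop of Henle-like cells. Tmprss2 and Furin, both proteases, had 56.9 and 41.7 CPM over all cells. Of the 5 tested over all cells and in proximal tubule-like cells 0 were called, again as over all genes (0%).

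The genes whose levels were most like those of each member were ranked by Pearson r of log2(CPM + 10) over 18 sums of a cell group in a library with at least 10 cells, among 1384 genes. These sums share libraries and, for a pair of libraries, cells. For Defb29 they were Rps27l (r 0.95), the uroguanylin gene Guca2b (0.85), the acyl-CoA-binding protein gene Dbi (0.84), Hint1 (0.84) and Mettl7a1 (0.83). Guca2b had a mean of 1689 CPM in proximal tubule-like and 177 CPM in other sums, and Rps27l 701 and 441 CPM. For Defb1 they were Wnk1 (0.98), the kinase that regulates the sodium chloride cotransporter, Tmem52b (0.97), Klhl3 (0.97), an adaptor through which WNK kinases are degraded, the kininogen gene Kng2 (0.96) and the sodium pump subunit gene Atp1b1 (0.96). Wnk1 and Tmem52b were among the markers of the distal convoluted tubule used for naming. Outside the proximal tubule-like sums Defb29 had 3 UMIs or fewer in each sum. It had 0 in every connecting tubule-like and intercalated-like sum. The r values of Defb29 therefore rest on counts near the floor outside the proximal tubule-like sums.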

How the data were processed

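Drop-seq libraries of renal cortex from 2 Akita and 2 wild-type mice were analysed from the deposited UMI counts per gene and barcode, whole numbers that the authors had not normalized, as the values show. Per the submitters' processing notes, the tools were STAR 2.5.2b, featureCounts 1.6.0 and UMI-tools 0.5.3, and the build was GRCm38; whether counting used strand is not given in the sources used here. Every file had 4 entries that cannot be barcodes, being undetermined or having 11 or more identical bases (up to 1.33% of UMIs). They were left out, as were barcodes outside the limits on genes and mitochondrial UMIs. GENCODE M21 gave no symbol for 19 to 26 identifiers in a file, which kept their identifier. Cells were clustered by Leiden (scanpy 1.11.5; leidenalg 0.10.2) after scaling each cell to 10000 UMIs (2000 variable genes without beta-defensins, 30 components, 15 neighbours, resolution 1, and a further split at 0.5 of clusters with markers of a second class). A cluster was named from at least 3 markers among its top 50 genes. Clusters not named against all other cells were ranked again against the groups other than proximal tubule. Scrublet marked 6 doublets, which were kept, and 407 retained barcodes differed by 1 base from another in their file.

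UMI counts were summed per library and tested with edgeR 4.0.16 (TMM, filterByExpr, quasi-likelihood, two-sided) in R 4.3.3, with Benjamini-Hochberg adjustment over all genes tested and a threshold of 0.05; the test was checked on simulated counts. DESeq2 1.42.0 and limma 3.58.1 (voom) were alternatives, beside no filter on low counts, the replicate number as a block, leaving out libraries in turn, cells with 500 genes or more, cells with 25% mitochondrial UMIs or less, removal of doublets, every deposited barcode, Leiden resolutions 0.5 and 2, groups from marker UMIs, thinning to 400 UMIs and the treatments of shared barcodes. The loop and distal convoluted tubule groups joined or exchanged, a crossed block, and other tools with shared barcodes kept in 1 file were chosen after seeing the data. The members and lists were chosen with earlier results of these data known, and no p is given for Defb29. Named genes were the members, other beta-defensins with a UMI in a retained cell, the 5 most abundant members of each list and any called, the nearest protein-coding neighbours, and the 5 genes most alike.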

Additional observations from a re-analysis of the deposited data

How the results depend on the processing

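The fitted log2 fold change of Defb29 in proximal tubule-like cells ran from 0.0457 to 1.84, and at 0.0457 the groups overlapped and the wild-type mean was the higher. It moved by more than the spread between libraries with each shared barcode kept in 1 file (1.83, with DESeq2 1.84, with limma-voom 1.82, with the replicate block 1.83), kept in the other file (0.0457) or left out (1.61), and ranged from 0.30 to 1.77 when a library was left out. Over all retained cells it had 1.599, 1.595, 1.61 and 1.606 in the same 4 fits and 0.19 to 1.69 when a library was left out. Defb1 in loop of Henle-like cells stayed lower in Akita and short of the threshold in all 24 alternatives (−0.93 to −0.21), but the groups overlapped in 9 of them: the 4 fits with each shared barcode kept in 1 file, both Leiden resolutions, groups from marker UMIs, at least 500 genes per cell and distal convoluted tubule-like cells in place of the loop. Over all retained cells Defb1 turned to 0.13 with each shared barcode kept in 1 file (DESeq2 0.13, limma-voom 0.11, with the replicate block 0.12) and ranged from −0.40 to 0.0799 (without Akita replicate 1) when a library was left out. As a log2 ratio of loop of Henle-like over proximal tubule-like levels (CPM + 10), Defb1 had 4.38 (3.89 to 4.88) and Defb29 −1.52, from −3.37 with distal convoluted tubule-like cells in place of the loop to −1.01 with at least 500 genes per cell, and −2.03 to −1.001 when a library was left out.

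No gene was called in the files as deposited. With a library left out the calls ranged from 0 to 23 over all cells, 0 to 12 in proximal tubule-like and 0 to 5 in loop of Henle-like cells, highest without Akita replicate 2, without Wild-type replicate 1 and without Akita replicate 2. Without a filter on low counts 1 gene was called over all cells and 1 in proximal tubule-like cells, and with shared barcodes kept in the other file 6 and 5. With them kept in 1 file 1 gene was called in loop of Henle-like cells, also by DESeq2, limma-voom and with the block. Groups from marker UMIs gave 1 call there, the list member Pigr. The cause of these changes was not tested. The labels do not say that the replicate numbers pair mice. Deviations from the group means of same-numbered libraries had a correlation of −0.25 over all cells. With 2 libraries per group, both numbers give the same value by construction. The libraries that share barcodes also carry different numbers. The correlation therefore cannot show whether the numbers pair mice. Fitted with the replicate block, Defb29 in proximal tubule-like cells had 0.97 and Defb1 in loop of Henle-like cells −0.51, with 0 calls. A block with the numbers crossed, fitted to the files as deposited only, also gave 0 calls. With shared barcodes kept in 1 file, the block gave 12 calls in proximal tubule-like cells, where edgeR without it, DESeq2 and limma-voom gave 0. Counts of 27 to 86 UMIs limit the precision of Defb29 in each library.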
